A study of Rattus norvegicus with 12 samples.

Results

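Fatty acid synthesis was followed through 10 genes in the livers of 12 male Wistar rats, an outbred laboratory strain: Srebf1, Fasn, Scd, Acaca, Acly, Elovl6, Me1, Thrsp, Gpam and Pnpla3. The rule lists the genes by name, although earlier results of these data were known when it was written, and all 20 of their probe sets with 1 gene symbol were taken, out of 20826 such probe sets for 14217 genes. The rats were 5 weeks old and had all eaten the purified AIN93G diet for 4 days. For the next 11 days, 1 group ate that diet with 20% maple syrup, and the control group ate it with 20% of a syrup blended from sugars to a like composition, so both groups were fed sugar. All rats were fasted for 16 hours before the livers were taken, so the livers were sampled in the fasted state. Per the labels, the feeding groups held 7 and 8 rats, respectively, and 6 arrays of each diet, each labelled a biological replicate, were analysed here. The comparison asks whether maple syrup and its sugar control differed in hepatic gene expression.

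The liver makes fatty acids from surplus carbohydrate. Citrate leaves the mitochondrion and is cleaved to acetyl-CoA by ATP citrate lyase (Acly), acetyl-CoA carboxylase (Acaca) makes malonyl-CoA, and fatty acid synthase (Fasn) joins these units into palmitate with NADPH that comes in part from malic enzyme (Me1). Elovl6 lengthens the product, stearoyl-CoA desaturase (Scd) adds a double bond, and Gpam, the mitochondrial glycerol-3-phosphate acyltransferase, starts glycerolipid assembly. Srebf1 encodes a transcription factor that is induced by insulin and activates many of these genes, and the pathway is known to be low in fasted liver. Thrsp, a lipogenic protein also known as Spot 14, and Pnpla3, a lipid droplet protein, belong to the same programme.

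Promoter sequences were read from RefSeq (build GRCr8) as windows of 300 bases, from 250 before to 50 after each start, and 7 of the 10 genes had one, with 8 windows in all because Srebf1 has 2 starts. The windows of Srebf1, Acly and Me1 are shown because the results turn on these genes. Their positions, all on the minus strand, are chr10:45518961-45519260 and chr10:45529115-45529414 for Srebf1, chr10:85963582-85963881 for Acly and chr8:96540195-96540494 for Me1. Capitals mark the CCAAT box (CCAAT, or ATTGG on the other strand) and the GC box (GGGCGG, or CCGCCC on the other strand).
Srebf1, first window: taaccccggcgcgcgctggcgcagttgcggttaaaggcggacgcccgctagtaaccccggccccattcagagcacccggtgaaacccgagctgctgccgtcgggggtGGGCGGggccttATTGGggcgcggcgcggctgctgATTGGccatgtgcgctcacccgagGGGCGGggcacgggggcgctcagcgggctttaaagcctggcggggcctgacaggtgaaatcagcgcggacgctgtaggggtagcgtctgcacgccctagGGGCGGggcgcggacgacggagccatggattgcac
Srebf1, second window: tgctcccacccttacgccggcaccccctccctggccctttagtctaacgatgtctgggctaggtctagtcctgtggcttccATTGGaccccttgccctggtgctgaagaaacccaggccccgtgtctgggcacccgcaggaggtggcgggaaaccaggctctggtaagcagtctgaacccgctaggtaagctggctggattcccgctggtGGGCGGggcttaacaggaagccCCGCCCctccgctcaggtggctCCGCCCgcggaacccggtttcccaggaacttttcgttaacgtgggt
Acly: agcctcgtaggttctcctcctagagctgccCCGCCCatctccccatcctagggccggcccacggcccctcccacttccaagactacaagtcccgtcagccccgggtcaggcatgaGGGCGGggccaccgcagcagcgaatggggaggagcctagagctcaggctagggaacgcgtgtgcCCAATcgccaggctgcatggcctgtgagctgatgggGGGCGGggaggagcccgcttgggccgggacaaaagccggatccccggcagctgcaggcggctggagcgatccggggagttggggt
Me1: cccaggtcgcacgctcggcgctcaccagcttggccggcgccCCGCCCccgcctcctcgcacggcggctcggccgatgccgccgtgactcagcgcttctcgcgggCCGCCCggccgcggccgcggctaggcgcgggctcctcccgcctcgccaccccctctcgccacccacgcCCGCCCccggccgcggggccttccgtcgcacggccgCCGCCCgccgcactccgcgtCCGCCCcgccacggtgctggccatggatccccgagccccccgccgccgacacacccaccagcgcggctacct
A CCAAT box was present in 6 of the 8 windows, those of Srebf1 (both), Acly, Thrsp, Gpam and Pnpla3, and in 37.5% of 33469 promoters of that length. A GC box was present in 6 of the 8 windows, those of Srebf1 (both), Acly, Me1, Thrsp and Pnpla3, and in 33.1% of all promoters. The core of the sterol regulatory element, TCACNCCAC, was in 0 of the 8 windows and in 1.12% of all promoters; the longer, full element was in 0 of the 8 windows and in 0.125% of all promoters. The E-box CACGTG was in 0 of the 8 windows and in 6.42% of all promoters. These searches covered both strands, and a missing match says only that these letters are not in these windows. Fasn, Acaca and Elovl6 had no window in the sources used here, so their promoters were not searched.

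The deposited values lay between 5.57 and 15.2 and look like log2 intensities, but a typical probe set differed between livers by far less than log2 intensities do: the median standard deviation over the 12 livers was 7.65e-06. The score is for that reason not read as log2 expression, and no fold is given. Values below are standardised, that is, each liver's deposited score minus the mean of the 12 livers, divided by their standard deviation. Array medians lay between 7.36619 and 7.36632, and that gap of 0.000132 is wider than the standard deviation of many probe sets. By the probe set with the highest mean, mean deposited scores were 9.72 for Me1, 9.64 for Acly, 9.49 for Thrsp, 9.22 for Acaca and 8.51 for Srebf1. They were 8.19 for Gpam, 8.05 for Fasn, 7.85 for Elovl6 and 7.53 for Scd. All 3 probe sets of Pnpla3 (6.89, 6.72 and 6.66), Fasn 1367707_at (6.95) and Elovl6 1394401_at (6.72) lay below the array medians. Whether these probe sets detected expression was not tested. Of the 10 hepatocyte markers 9 were measured, with mean scores between 11.35 and 15.21. Of the 8 adipocyte markers 6 were measured, with mean scores between 6.63 and 8.35, and their mean standardised value ran from -1.33 to 0.53 in sugar mix livers and from -0.46 to 0.55 in maple syrup livers. For Kupffer cells and macrophages 8 of 10 markers were measured, and the corresponding ranges were -0.19 to 0.95 and -1.51 to 0.66. Of these 8 markers 7 had a lower and 1 a higher mean with maple syrup. The mean was lower with maple syrup for 5 of 9 hepatocyte, 2 of 6 adipocyte and 6 of 8 stellate cell and fibroblast markers. It was lower for 4 of 5 cholangiocyte, 1 of 5 sinusoidal endothelium and 1 of 4 erythroid and blood markers. Among the hepatocyte markers the standard deviation ran from 5.22e-09 for Alb to 0.00224 for Tat. Where the spread is far below the gap of array medians, the sign is not read as a difference. Whether these cell type markers play a part in the results was not tested. In whole liver, fewer cells of a type and less RNA per cell cannot be told apart.

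No member differed between the diets by the limma test: 0 of 20 probe sets passed an adjusted p of 0.05, against 0.0% of all 20826, and the smallest adjusted p over all of them was 0.627. The adjusted p of each of the 20 was 1.0. Without adjustment, 3 of the 20 had a limma p under 0.05: both probe sets of Srebf1, lower with maple syrup, and 1 of Me1, higher. That unadjusted threshold was passed by 2.11% of all probe sets in the lower direction and by 2.08% in the higher. These shares are not matched for spread, and 13 of the 20 had a standard deviation of at least 0.0001, against 8.25% of all probe sets. At very small spread the limma p can be the larger: for Akt2 (standard deviation 6.3e-07) it was 0.669, and the exact permutation p 0.245. The share among probe sets of like spread is not given here. By the brightest probe set of each gene, 6 genes had a lower and 4 a higher mean with maple syrup. The median Hedges' g, the difference of means in units of the standard deviation within diets, was -0.26 over the 10 genes and -0.04 over all genes. An exact permutation test of the 924 arrangements, which cannot give a p under 0.00216, is given for single probe sets below.

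**Figure D1:**
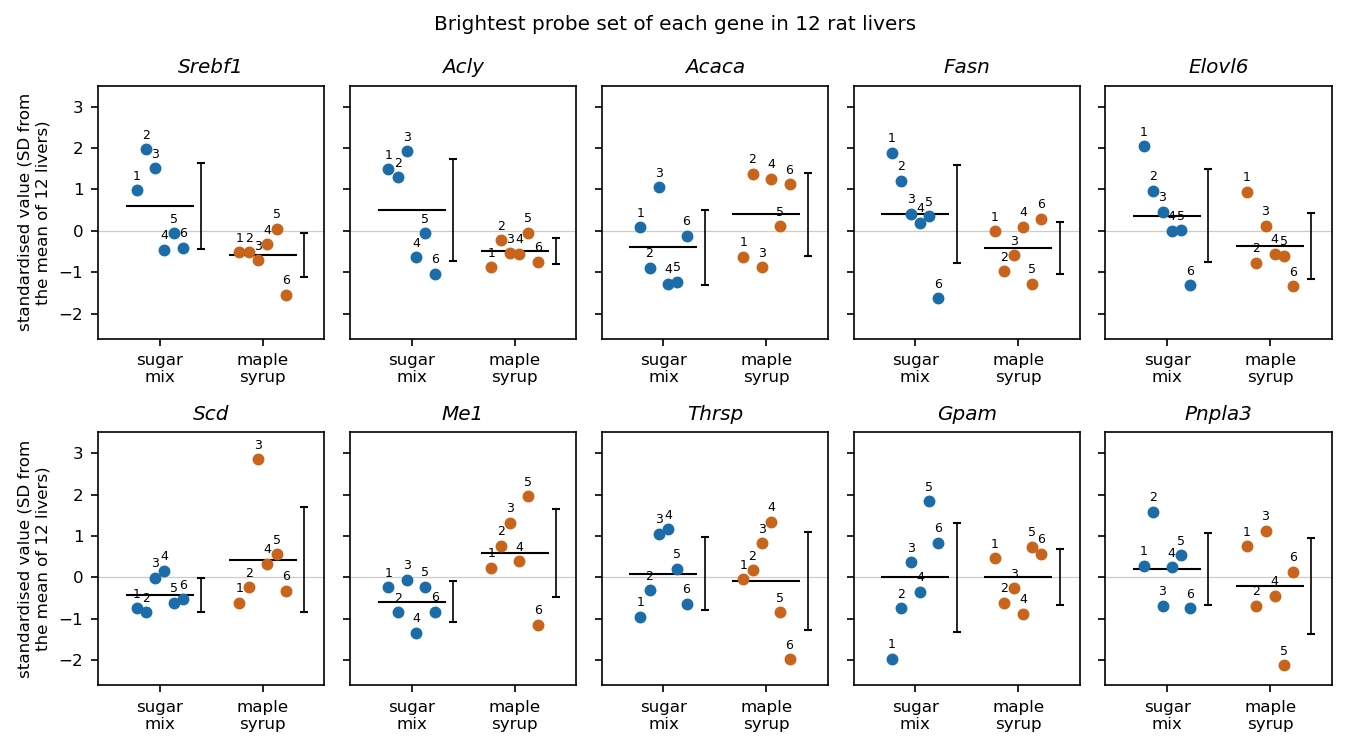
Standardised value of the brightest probe set of each of the 10 genes in each liver (vertical axis, SD from the mean of 12 livers), by diet; numbers are replicate labels, horizontal bars are means and brackets span 1 SD either side of the mean, n = 6 per diet. The diets overlap in each panel, and sugar mix replicates 1, 2 and 3 are the 3 highest livers for Srebf1 and Acly.

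Srebf1 was measured by 2 probe sets. For 1388426_at the standardised values were 0.98, 1.97, 1.51, -0.45, -0.05 and -0.41 in sugar mix replicates 1 to 6, and -0.52, -0.51, -0.71, -0.32, 0.05 and -1.54 in maple syrup replicates 1 to 6. Sugar mix replicates 1, 2 and 3 stood above all other livers, while the other 3 sugar mix livers lay among the maple syrup livers. The difference was g = -1.32 (95% interval -2.49 to -0.11, n = 6 per diet), maple syrup was higher in 5 of 36 pairs of 1 liver of each diet, and the exact two-sided permutation p was 0.0411. The second probe set, 1371104_at, ran from -0.29 to 1.79 in sugar mix livers (median 0.42) and from -1.51 to -0.08 in maple syrup livers (median -0.51). Its difference was g = -1.48 (-2.68 to -0.23), with an exact permutation p of 0.0195. Neither probe set passed after adjustment over all probe sets.

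Acly has 1 probe set with 1 symbol, 1367854_at. Its values were 1.49, 1.29, 1.92, -0.63, -0.06 and -1.03 in sugar mix replicates 1 to 6, and -0.88, -0.23, -0.54, -0.55, -0.04 and -0.74 in maple syrup replicates 1 to 6. The same 3 sugar mix livers as for Srebf1 were the highest, and the other 3, from -1.03 to -0.06, overlapped the maple syrup livers. The standard deviation was 1.23 in sugar mix livers and 0.31 in maple syrup livers. The difference of g = -1.02 (-2.13 to 0.13) had an exact permutation p of 0.117, and its sign turned under quantile normalization, with a moderated t of 0.55 in place of -1.98.

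Me1, which supplies NADPH, had higher means with maple syrup in both probe sets. For 1370067_at the sugar mix livers gave -0.24, -0.84, -0.06, -1.34, -0.23 and -0.83 in replicates 1 to 6, and the maple syrup livers 0.23, 0.77, 1.32, 0.39, 1.96 and -1.14. All maple syrup livers but replicate 6 lay above every sugar mix liver. The difference was g = 1.32 (0.11 to 2.49), maple syrup was higher in 31 of 36 pairs, and the exact permutation p was 0.0346. The second probe set, 1370870_at, gave g = 0.80 (-0.32 to 1.88) with an exact permutation p of 0.165, and maple syrup replicate 6 was again the lowest liver at -1.71. The moderated t of 1370067_at ran from 2.14 to 4.36 as each array in turn was left out.

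For Acaca and Fasn, the enzymes that build the chain, each interval of g included 0. Each also reached past 1 standard deviation in at least 1 direction, so a difference of that size could not be told from none. Acaca 1370893_at ran from -1.28 to 1.05 with sugar mix (median -0.51) and from -0.88 to 1.38 with maple syrup (median 0.62), for g = 0.77 (-0.35 to 1.85) and an exact permutation p of 0.177. Acaca 1387538_at had g = -0.11 (-1.15 to 0.94). The 2 probe sets of this gene thus differed in sign, and each sign turned under quantile normalization, to a moderated t of -0.98 and 0.24. Fasn 1367708_a_at ran from -1.62 to 1.89 with sugar mix (median 0.39) and from -1.28 to 0.29 with maple syrup (median -0.30), for g = -0.80 (-1.88 to 0.32) and an exact permutation p of 0.169. Fasn 1367707_at, with a mean score below the array medians, had g = 0.02 (-1.02 to 1.07), with an exact permutation p of 0.968.

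Elovl6 and Scd modify the finished chain. Elovl6 1388108_at ran from -1.31 to 2.05 with sugar mix (median 0.24) and from -1.34 to 0.95 with maple syrup (median -0.57). Replicate 1 was the highest and replicate 6 the lowest liver of both diets, although the labels do not say whether the numbers pair animals. The difference of 1388108_at was g = -0.69 (-1.76 to 0.41, exact permutation p 0.219), and the second probe set gave g = -0.50 (-1.56 to 0.57). Scd 1370355_at had the widest spread of the 20 probe sets, with a standard deviation of 0.0297 on the deposited score. It gave -0.74, -0.84, -0.01, 0.16, -0.61 and -0.53 in sugar mix replicates 1 to 6, and -0.61, -0.24, 2.85, 0.33, 0.56 and -0.32 in maple syrup replicates 1 to 6. Maple syrup replicate 3 stood alone at the top and the remaining livers of the diets overlapped. The difference was g = 0.84 (-0.28 to 1.93), with an exact permutation p of 0.102.

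Thrsp, Gpam and Pnpla3 had differences close to 0 relative to their spread. The 3 probe sets of Thrsp gave g = -0.16 (-1.20 to 0.89), -0.21 (-1.25 to 0.85) and -0.21 (-1.26 to 0.84). Thrsp 1370150_a_at ran from -0.95 to 1.17 with sugar mix and from -1.97 to 1.34 with maple syrup, and replicate 4 was the highest liver of each diet. Gpam 1382986_at ran from -1.96 to 1.84 with sugar mix and from -0.88 to 0.74 with maple syrup, for g = 0.00 (-1.04 to 1.05), and the second probe set gave g = 0.13 (-0.92 to 1.17). The 3 probe sets of Pnpla3, all with mean scores below the array medians, gave g = -0.37 (-1.41 to 0.70), -0.07 (-1.12 to 0.97) and 0.26 (-0.80 to 1.30). These intervals reach past 1 standard deviation in at least 1 direction for all 8 probe sets, so a difference of that size in these genes could not be told from none with 6 livers a diet.

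**Figure D2:**
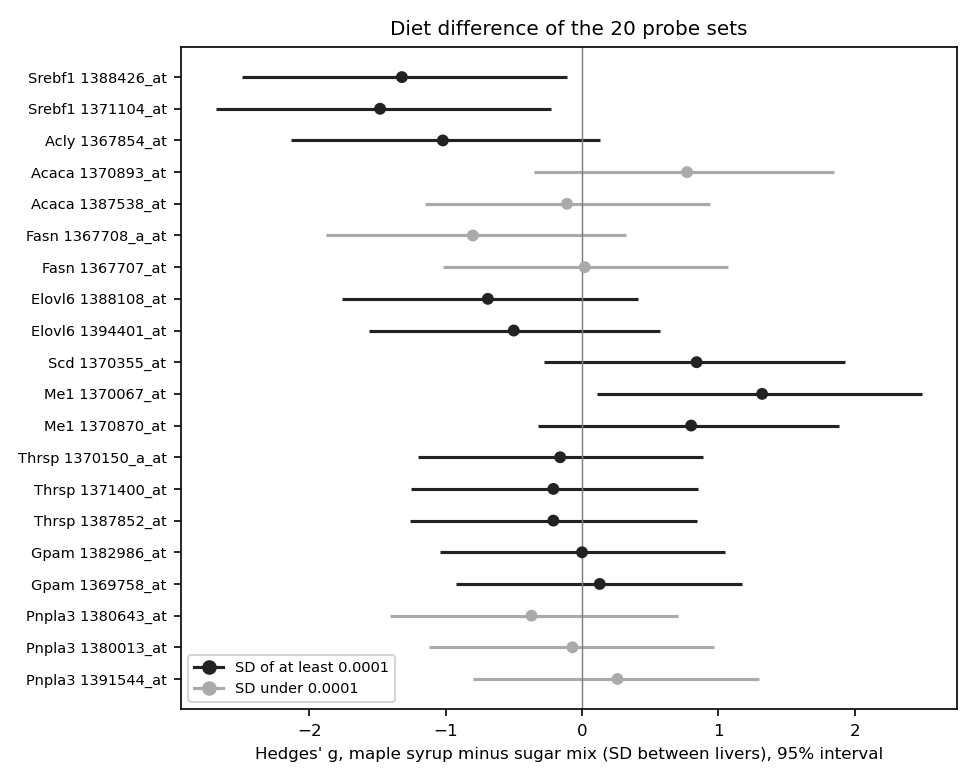
Hedges' g of maple syrup minus sugar mix for the 20 probe sets (horizontal axis, units of the SD between livers of a diet), with 95% intervals; black marks probe sets with an SD over 12 livers of at least 0.0001 on the deposited score, grey the others. The intervals of both Srebf1 probe sets lie below 0 and that of Me1 1370067_at above it, while the other 17 include 0.

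Probe sets of 1 gene varied together over the livers in 5 of the 8 genes that have more than 1. Of the 12 within-gene pairs, 7 were called at an adjusted permutation p of 0.05, against 13.7% of 9597 such pairs on the array. The correlations were r = 0.98 for Srebf1 (rho 0.89), 0.96 for Elovl6 (rho 0.94), 0.94 for Me1 (rho 0.91), 0.93 for Gpam (rho 0.92) and 0.99 for each of the 3 pairs of Thrsp. Without the 2 livers farthest from the median these ran from 0.88 for Me1 to 0.99 for Thrsp. The pairs that were not called were Acaca at r = 0.26 (permutation p 0.403, adjusted 0.66), Fasn at 0.21 (p 0.516, adjusted 0.752) and the 3 pairs of Pnpla3 at 0.11 to 0.52.

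The called pairs were those with wide spread. Of the 20 member probe sets 13 had a standard deviation of at least 0.0001 on the deposited score, against 8.25% of all probe sets; this bound was chosen after the values were seen. Among pairs of all genes in which both probe sets reached it, 85.8% of 281 were called and the median r was 0.90, and among the other pairs 11.5% of 9316 were called and the median r was 0.27. The 7 called member pairs all belong to the first kind and the 5 that were not called to the second, that is 7 of 7 and 0 of 5, beside 85.8% and 11.5% on the array. The smaller standard deviation of the pair was 4.58e-06 for Fasn and 2.61e-06 for Pnpla3. Under median centring all 12 member pairs were called, and under quantile normalization 4 were, so the call depends on the scaling. The share of all within-gene pairs called under these scalings is not given here, so these counts are not read as a trait of the members. Median centring widened the standard deviation of Pnpla3 1380643_at from 2.61e-06 to 3.57e-05. Its centred values correlated with the deposited ones at 0.26.

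**Figure D3:**
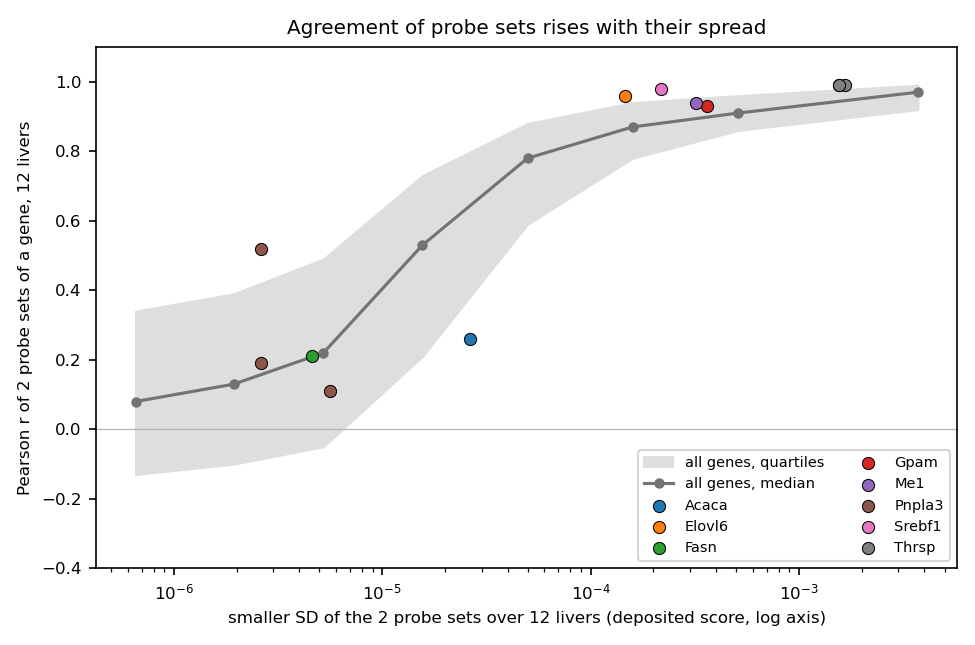
Pearson r between 2 probe sets of a gene over 12 livers (vertical axis) against the smaller of their standard deviations (horizontal log axis, deposited score); coloured points are the 12 member pairs, and the line and band are the median and quartiles over all 9597 within-gene pairs in bins. The pairs of Srebf1, Elovl6, Me1, Gpam and Thrsp lie at 0.93 or above, and those of Acaca, Fasn and Pnpla3 at 0.52 or below.

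The relation of Srebf1 to its target genes was taken over the 12 livers with the brightest probe set of each gene. No correlation passed adjustment over 14216 genes: 0.0% were called, for 0 of the 9 members, and the smallest adjusted permutation p was 0.284. Without adjustment 2 members had a permutation p under 0.05, Acly and Elovl6, both positive, as had 5.03% of all genes in the positive and 2.96% in the negative direction. The median r was 0.14 over the 9 members and 0.03 over all genes, and 5 of the 9 were above 0, as were 53.5% of all genes.

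Acly followed Srebf1 most closely, at r = 0.90 (permutation p 0.00063, adjusted 0.423) and rho = 0.77 (p 0.00501, adjusted 0.964), the highest r of all 14216 genes. The value was lower without the 3 sugar mix livers that stood highest in Srebf1. Leaving out livers by their Srebf1 value narrows its range and can by itself lower r. Without the 2 livers farthest from the median, sugar mix replicates 2 and 3, r was 0.81 (permutation p 0.00894). Without sugar mix replicates 1, 2 and 3 it was 0.51 over the other 9 livers (permutation p 0.161), and 7.89% of genes had an r at least as high there; this subset was chosen after the values were seen. Within the diets r was 0.92 in the 6 sugar mix livers (exact permutation p 0.0431) and 0.61 in the 6 maple syrup livers (exact permutation p 0.188). The correlation was 0.88 with the other Srebf1 probe set and 0.84 after median centring, but 0.04 after quantile normalization, under which the Acly values themselves correlated with the deposited ones at 0.27.

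Elovl6 had r = 0.65 with Srebf1 (permutation p 0.0217, adjusted 0.512) and rho = 0.50 (p 0.0974, adjusted 0.964), and 2.82% of genes had an r at least as high. It was 0.68 without the 2 farthest livers, 0.66 within sugar mix, 0.34 within maple syrup and 0.62 after quantile normalization, and 0.31 over the 9 livers without the 3 highest in Srebf1 (permutation p 0.428). Fasn had r = 0.52 (permutation p 0.0804, adjusted 0.66) and rho = 0.50 (p 0.104, adjusted 0.964), with 0.65 within sugar mix and -0.64 within maple syrup; it was -0.13 after median centring and -0.30 over the 9 livers. The remaining members lay between -0.31 and 0.16: Thrsp at 0.16, Pnpla3 at 0.14, Me1 at -0.07, Acaca at -0.12, and Scd and Gpam both at -0.31. For Me1, whose mean was higher with maple syrup while that of Srebf1 was lower, r was 0.42 within sugar mix (exact permutation p 0.362), 0.84 within maple syrup (exact permutation p 0.0542) and 0.51 on values centred by diet.

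**Figure D4:**
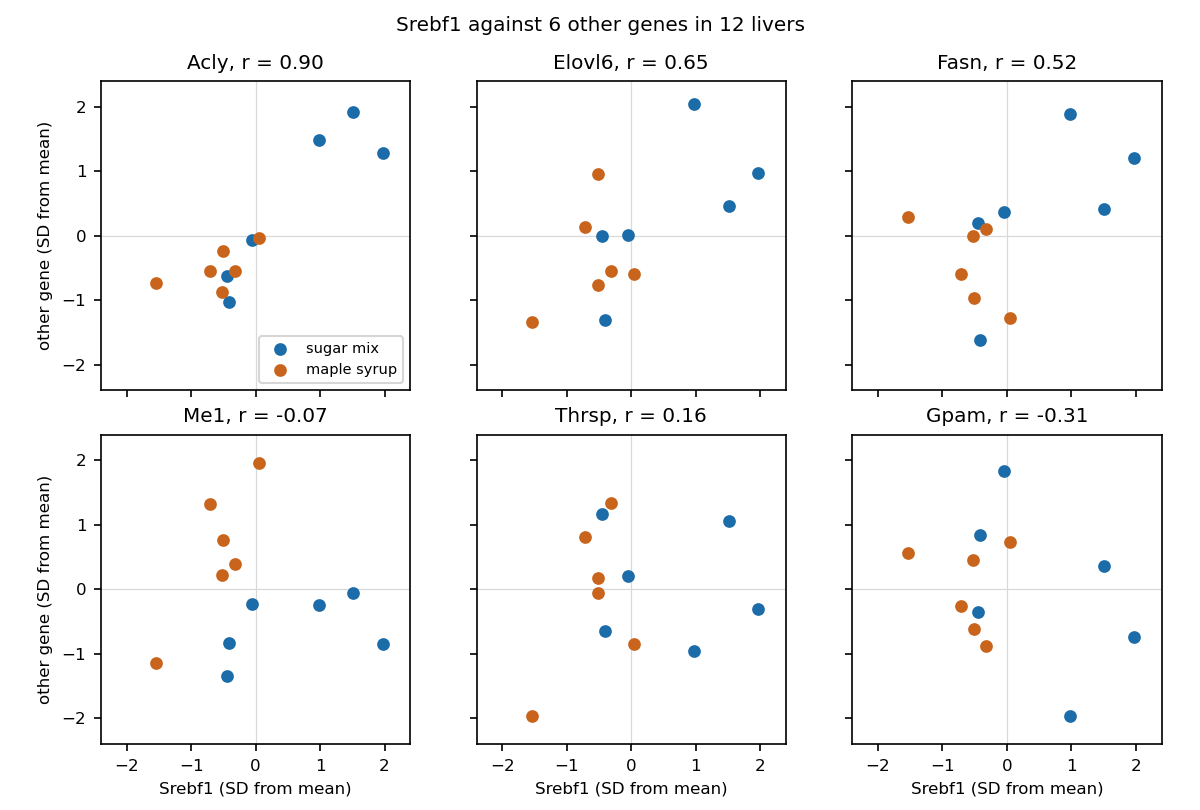
Standardised value of 6 genes (vertical axes) against Srebf1 (horizontal axis, SD from the mean) in 12 livers, blue for sugar mix and orange for maple syrup, with Pearson r over all livers in each title. In the Acly panel 3 sugar mix livers lie apart at the upper right, and in the Me1 panel the maple syrup livers lie mostly above the sugar mix livers.

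Among the 45 pairs of members, 21 correlations were above 0 and 24 below, with a median of -0.03 against 0.01 over all gene pairs. An unadjusted permutation p under 0.05 was reached by 5 pairs, 11.1% of the 45, all with an r of at least 0.64 in size, and 3.65% of all gene pairs had an r of that size. No p was adjusted over the 45 pairs, so these p do not allow for the number of pairs tested. All 5 lie among Srebf1, Acly, Fasn and Elovl6. Those without Srebf1 are given only for the deposited score and the brightest probe sets. The second Fasn probe set followed the first at r = 0.21. Under quantile normalization the values of Acly correlated with the deposited ones at 0.27, and those of Fasn 1367708_a_at at 0.34. Under median centring these were 0.98 and 0.39. The standard deviation of Fasn 1367708_a_at, 1.14e-05, was below the gap of 0.000132 between array medians. Fasn and Elovl6 had r = 0.76 (permutation p 0.00435) and rho = 0.64 (p 0.0279), with 0.47 without the 2 farthest livers, 0.98 within sugar mix and 0.04 within maple syrup. Acly had r = 0.64 with Fasn (permutation p 0.0262, rho 0.58 with p 0.0515) and 0.65 with Elovl6 (permutation p 0.0228, rho 0.55 with p 0.0707); within maple syrup these were -0.90 and -0.39. Whether the correlations differed between the diets was not tested.

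**Figure D5:**
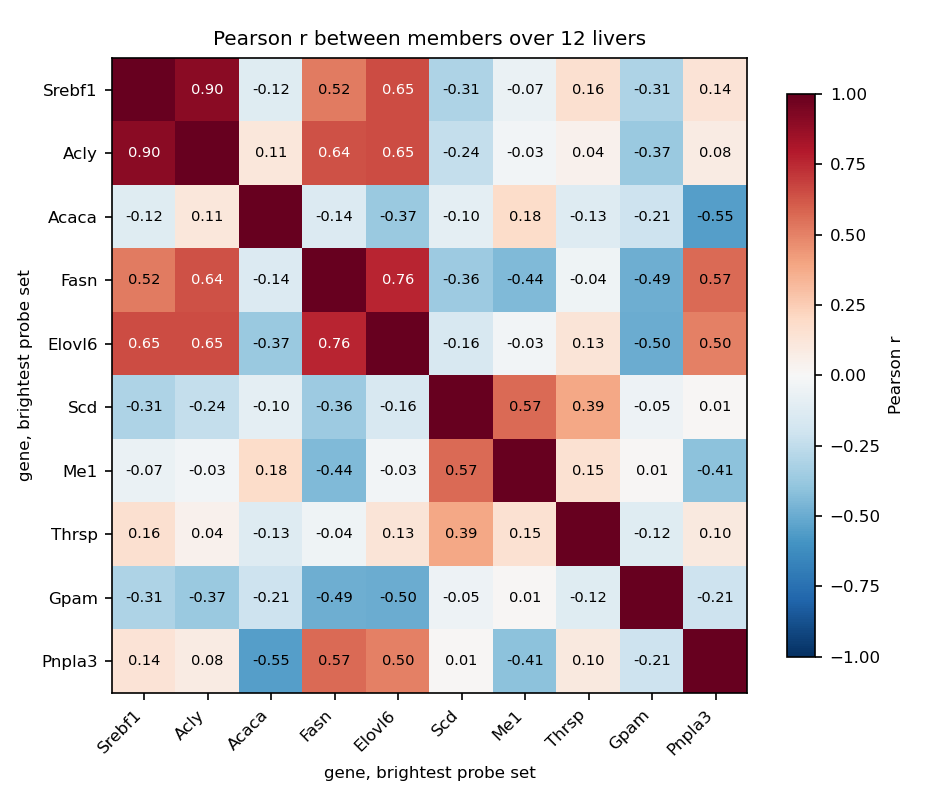
Pearson r of the deposited score over 12 livers for each pair of the 10 genes, by the brightest probe set, from blue (-1) to red (1). Srebf1, Acly, Fasn and Elovl6 have positive values with each other, between 0.52 and 0.90, and Scd, Me1 and Gpam have values with these 4 between -0.50 and -0.03.

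Genes around the pathway were read from 4 lists with 83 measured genes, and 0 of these passed an adjusted p of 0.05 in limma, against 0.0% of 14217 genes. Without adjustment 2 had a p under 0.05 with a higher and 2 with a lower mean with maple syrup, against 2.03% and 2.21% of all genes. Of 18 regulators 18 were measured, 13 higher and 5 lower with maple syrup, with a median g of 0.26. Insig2, which holds the SREBP precursors in the endoplasmic reticulum, had g = 1.03 (-0.13 to 2.14), and Insig1 had -0.19 (-1.24 to 0.86). Scap, the escort of those precursors, had g = 0.07 (-0.98 to 1.11), and Srebf2, the regulator of cholesterol synthesis, -0.33 (-1.38 to 0.73). The other probe sets of these genes gave 0.83 for Insig2, 0.01 for Scap and, with the opposite sign, 0.58 for Srebf2. Mlxipl, which encodes the carbohydrate response factor ChREBP, had g = 0.48 (-0.60 to 1.53), and Nr1h3, the liver X receptor, 0.51 (-0.57 to 1.56). Pparg, a lipogenic nuclear receptor, had g = 1.06 (-0.10 to 2.18); it and Insig2 had the smallest p of this list. The signs of Insig2, Scap, Mlxipl and Nr1h3 turned under quantile normalization and that of Srebf2 under median centring.

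For the supply of sugar carbon, citrate and NADPH, 17 of 20 genes were measured, 8 higher and 9 lower, with a median g of -0.09. Pklr, the liver pyruvate kinase and a ChREBP target, had g = 1.21 (0.02 to 2.35, unadjusted limma p 0.0395), but its sign turned under quantile normalization, and its other probe set gave 0.58. Tkfc, which phosphorylates glyceraldehyde from fructose, had g = 0.99 (-0.16 to 2.10) and 0.29 in its other probe set; these 2 had the smallest p of the list. Slc25a1, the citrate carrier, had g = -0.21 (-1.25 to 0.85), and Acacb, the mitochondrial carboxylase, -0.09 (-1.13 to 0.96). Acss2, which makes acetyl-CoA from acetate, had g = -0.37 (-1.42 to 0.69) and r = 0.72 with Srebf1 (permutation p 0.00876, adjusted 0.467; rho 0.37, p 0.236), but 0.21 without the 2 farthest livers.

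For elongation, desaturation and activation, 17 of 19 genes were measured, 7 higher and 10 lower, with a median g of -0.22. Hacd1, a dehydratase of the elongation cycle, had its maple syrup value above its sugar mix value in 36 of 36 pairs, with g = 2.85 (1.20 to 4.43), an unadjusted limma p of 0.000201, an adjusted p of 1.0 and an exact permutation p of 0.00216, the smallest this design allows; it was picked by its p. Its other probe set gave g = 1.69, and its r with Srebf1 was -0.80 (permutation p 0.00123, adjusted 0.423; rho -0.80, p 0.00223), or -0.57 without the 2 farthest livers. By the exact permutation test 0 probe sets passed adjustment over all probe sets. The share of all genes with the diets fully apart, as for Hacd1, is not given here. Elovl5, an elongase of polyunsaturated chains and the second of the list by p, had g = -0.69 (-1.77 to 0.41), and its other probe set gave -0.16. The desaturases Fads1 and Fads2 had g = 0.05 (-1.0 to 1.09) and 0.15 (-0.90 to 1.19).

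For triglyceride assembly and lipid droplets, 31 of 32 genes were measured, 10 higher and 21 lower, with a median g of -0.32 against -0.04 over all genes. Agpat1, which acylates lysophosphatidic acid, had g = -1.63 (-2.86 to -0.34, unadjusted limma p 0.0169), but its sign turned under both quantile normalization and median centring, and its other probe set gave -0.05. Mttp, which loads triglyceride onto lipoproteins, had g = -1.24 (-2.38 to -0.04, unadjusted limma p 0.0362); these 2 had the smallest p of the list. Dgat2, which makes triglyceride, had g = -0.65 (-1.72 to 0.45), Plin2, a lipid droplet coat protein, -0.34 (-1.39 to 0.72), Angptl8, an insulin-induced inhibitor of lipid clearance, -0.70 (-1.78 to 0.40), and Lpin1, a phosphatidate phosphatase, 0.82 (-0.30 to 1.91). The other probe sets gave -0.51 for Dgat2, -0.10 for Plin2 and 1.04 for Lpin1. In this list 26 of 31 genes correlated positively with Srebf1 over the 12 livers, as did 53.5% of all genes, with a median r of 0.29 against 0.03. Within sugar mix 27 of the 31 were positive (53.9% of all genes) with a median r of 0.49, and within maple syrup 11 of the 31 were (48.4% of all genes) with a median r of -0.32. The supply list also had fewer positive genes within maple syrup, 6 of 17 (median r -0.18), than within sugar mix, 13 of 17 (median r 0.24). The regulators had 11 and 9 of 18, and the elongation list 12 and 10 of 17, respectively. The difference between the diets was not tested. For Plin2 r was 0.63 (permutation p 0.0274, adjusted 0.54; rho 0.40, p 0.201), and 0.59 without the 2 farthest livers, while its other probe set gave 0.12.

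Outside the 10 genes, the patterns most like that of Srebf1 over the 12 livers, by Pearson r, were Dnttip1 at 0.90, Rnf114 and Rnmt at 0.88, and Ewsr1 and Polr3a at 0.87. The least like were Sppl3 at -0.87 and Psd3 and C1qtnf1 at -0.85. Without the 2 farthest livers the 5 highest ran from 0.59 for Rnf114 to 0.89 for Dnttip1, and those of Dnttip1, Rnf114, Ewsr1 and Polr3a were below 0 under both quantile normalization and median centring. Against the mean standardised value of the 10 genes, the highest were Znrd2 at 0.92, Ormdl3 at 0.90, Crls1 at 0.89, Lsm14a at 0.88 and Cerkl at 0.87. That mean ran from -0.64 to 0.60 in sugar mix livers and from -0.49 to 0.33 in maple syrup livers, so the diets overlapped.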

How the data were processed

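Livers were kept in RNAlater, and biotin-labelled cRNA from 2 ug of total RNA went onto Affymetrix arrays, per the labels' protocols. The authors deposited 1 processed value per probe set and array, used here as a score; how it was summarized and normalized is not given in the sources used here. The table has 31099 probe sets and 0 missing values. Names came from the platform annotation of the probe sets, with 20758 matched to the RefSeq gene table; 436 with several symbols, 9780 unnamed and 57 controls were left out.

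The diet test was limma's (version 3.58.1, R 4.3.3), with lmFit and eBayes, a trend on intensity, two-sided p and Benjamini-Hochberg adjustment over 20826 probe sets to 0.05, and no filter on low values. Correlations were tested with 100000 permutations, all arrangements within a diet, two-sided; the smallest p of the former is 1e-05. A gene's brightest probe set is that with the highest mean. The scripts were tested on simulated data. The number of arrays limits the precision. The labels give no batch.

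The members and lists were chosen with earlier results of these data known. Named genes are the 10 members, a set of genes fixed from the lists (not all are reported here), the 2 with the smallest p of each list, and those most and least like Srebf1. Alternatives were quantile normalization, median centring, other variance models, array weights, 1 probe set per gene, a filter on the lowest 30%, a block for the replicate number, leaving out single arrays, and other forms of the correlation. Figures were drawn with matplotlib 3.10.9.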

Additional observations from a re-analysis of the deposited data

Results flagged for a closer look

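In 84 combinations of a probe set and a diet, 5 had 1 liver far from the other 5 of its diet by Dixon's test, where chance gives about 4.2. Scd 1370355_at was at 2.85 standard deviations above its mean in maple syrup replicate 3. Fasn 1367707_at was at 1.14 in sugar mix replicate 3. Among the regulators, Scap 1389567_at was at 2.4 in sugar mix replicate 6 and Insig2 1393690_at at -1.3 in maple syrup replicate 6. Dgat2 1371615_at was at 1.77 in maple syrup replicate 6.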

How the results depend on the processing

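No diet call or Srebf1 correlation passed an adjusted p of 0.05 as reported, and the counts of calls stayed at 0 in every alternative run for each. The 7 called pairs of probe sets became 4 under quantile normalization, 12 under median centring, and 0 in the 6 livers of either diet alone, where few livers enter. These counts cover member pairs only, and the share over all within-gene pairs is not given for these alternatives. As a count of unadjusted p under 0.05, the 873 probe sets became 993 under quantile normalization and 193 under median centring, and between 651 and 1148 with 1 array left out; the 3 member probe sets became between 2 and 5. The labels do not say whether equal replicate numbers pair the rats. Same-numbered livers correlated at -0.04 to 0.12 in their deviations from the diet means, and 0 of the livers correlated best with their own number. Livers with different numbers correlated at -0.25 to 0.19. A pairing need not show in such correlations, so they cannot decide whether the numbers mark one. With the number as a replicate block 0 probe sets were called and 912 had an unadjusted p under 0.05. Among the members 4 probe sets had such a p with the block, in place of 3. The moderated t of both Elovl6 probe sets stayed negative and was larger in size with the block. By rank (Spearman rho), the correlation with Srebf1 of Pnpla3 (-0.09) changed sign. With array weights, the moderated t of Fasn 1367707_at (-0.36), Gpam 1382986_at (-0.19) and Pnpla3 1380013_at (0.19) changed sign. On values centred by diet, the correlation with Srebf1 of Acaca (0.19) and Me1 (0.51) changed sign. In maple syrup livers only, the correlation with Srebf1 of Acss2 (-0.46), Fasn (-0.64), Me1 (0.84), Pnpla3 (-0.56) and Scd (0.11) changed sign. With the mean of standardised probe sets, the correlation with Srebf1 of Me1 (0.07) and Pnpla3 (-0.04) changed sign. Under median centring, the moderated t of Acaca 1387538_at (0.03), Acacb (0.26), Agpat1 (0.17), Pnpla3 1380013_at (0.35), Pnpla3 1380643_at (0.3), Slc25a1 (0.31) and Srebf2 (0.29) and the correlation with Srebf1 of Dnttip1 (-0.17), Ewsr1 (-0.02), Fasn (-0.13), Pnpla3 (-0.3), Polr3a (-0.06) and Rnf114 (-0.15) changed sign. Under quantile normalization, the moderated t of Acaca 1370893_at (-0.98), Acaca 1387538_at (0.24), Acly 1367854_at (0.55), Agpat1 (0.36), Fasn 1367707_at (-0.39), Gpam 1369758_at (-0.44), Gpam 1382986_at (-0.2), Insig2 (-0.29), Mlxipl (-1.41), Nr1h3 (-0.59), Pklr (-0.8), Pnpla3 1391544_at (-0.31) and Scap (-0.92), the correlation with Srebf1 of Acaca (0.08), Acss2 (-0.15), Dnttip1 (-0.08), Ewsr1 (-0.18), Polr3a (-0.46) and Rnf114 (-0.32) and the agreement of Acaca 1370893_at and 1387538_at (-0.64) changed sign. In sugar mix livers only, the correlation with Srebf1 of Acaca (0.43), Me1 (0.42) and Thrsp (-0.11) and the agreement of Pnpla3 1380013_at and 1391544_at (-0.39) and Pnpla3 1380643_at and 1380013_at (-0.2) changed sign. Without the 2 farthest livers, the correlation with Srebf1 of Me1 (0.22) and Pnpla3 (-0.17) changed sign. Without the 3 livers highest in Srebf1, an alternative chosen after seeing the data, the correlation with Srebf1 of Acss2 (-0.4), Fasn (-0.3), Gpam (0.19), Me1 (0.44) and Pnpla3 (-0.4) changed sign. Leaving out 1 array at a time turned the sign at least once of the moderated t of Acaca 1387538_at (-0.62 to 0.27), Fasn 1367707_at (-0.73 to 0.5), Thrsp 1370150_a_at (-0.81 to 0.4), Thrsp 1371400_at (-0.94 to 0.24), Thrsp 1387852_at (-1.04 to 0.26), Gpam 1382986_at (-0.79 to 0.73), Gpam 1369758_at (-0.28 to 0.76), Pnpla3 1380013_at (-0.73 to 0.68), Scap (-0.32 to 1.45), Insig1 (-1.02 to 0.14), Slc25a1 (-0.63 to 0.21), Acacb (-0.7 to 0.37), Fads1 (-0.82 to 0.56) and Fads2 (-0.82 to 0.62); of the correlation with Srebf1 of Acaca (-0.33 to 0.07), Me1 (-0.29 to 0.13), Thrsp (-0.21 to 0.28) and Pnpla3 (-0.25 to 0.28); and of the agreement of Pnpla3 1380643_at and 1380013_at (-0.07 to 0.58) and Pnpla3 1380013_at and 1391544_at (-0.06 to 0.42). Of the single values, 17 lost and 5 gained the threshold, all of them agreements of probe sets. The causes of these changes were not tested. Quantile normalization left 1167 probe sets, 0 of them members, at 1 value on all arrays, and gave no value for Elovl5, Fads1, Fads2, Dgat2, Plin2 and Mttp. It widened the standard deviation of Fasn 1367708_a_at by 9.68 times and of Pnpla3 1380643_at by 21.7 times. The moderated t of Srebf1 1388426_at stayed between -3.05 and -2.13 and the correlation of Acly with Srebf1 between 0.87 and 0.92 with 1 array left out.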
